A study of Mus musculus with 6 samples.

Results

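Syk, Dek, Bcor, Cdh11 and Ngfr are mouse counterparts of genes known from human retinoblastoma, the childhood tumor of the retina that begins with loss of RB1. They were taken by symbol from the count table of 21-day-old (P21) mouse retinae, where each of the 5 symbols matched 1 of 24062 genes. The genotypes compared were both on a C57BL/6 background, with 3 retinae each. Rb1/p107 DKO retinae carried Chx10-Cre, floxed Rb1 alleles and germline loss of p107 (gene Rbl1), and Rb1/p107/Hells TKO retinae also carried floxed alleles of Hells, which encodes a chromatin remodeler under control of RB and E2F. Both groups therefore lack Rb1 in recombined cells and p107 in every cell, and the comparison asks what Hells loss adds. Chx10-Cre acts in a mosaic of retinal progenitors, so cells that escaped recombination are part of every retina. A retina without these deletions was not analysed here.

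In human tumors these genes have different histories. DEK, a chromatin protein that binds DNA and histones, lies in a chromosome region that is often gained, and SYK, a cytoplasmic tyrosine kinase best known downstream of immune receptors, is switched on in tumor cells although retinal neurons normally lack it. BCOR, a corepressor that works in a variant Polycomb complex, is the gene most often mutated after RB1, and CDH11, a cell adhesion protein of the cadherin family, lies in a region that is often lost. NGFR (p75NTR), the low-affinity neurotrophin receptor, can signal cell death and is found in normal retina and benign retinoma more than in retinoblastoma.

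The libraries held 10343907 to 14203098 counts on genes. Hells had 60.8, 68.4 and 83.4 normalized counts (counts scaled by edgeR's TMM method to a common library size) in the TKO retinae and 678, 523 and 395 in the DKO retinae, so the libraries separated by label. Its log2 fold change was -2.91, beside a median of -2.55 for markers of dividing cells. Deletion of Hells and fewer dividing cells cannot be told apart by these counts. All 8 rod markers rose in TKO retinae, against 7.35% of all genes, and all 14 markers of dividing cells fell, against 9.2% (edgeR, adjusted p up to 0.05). The Y-linked gene Ddx3y had 866 to 891 counts in TKO replicate 1 and in DKO replicates 1 and 2 and was at 0 in the other 3 libraries, so the sexes were not balanced between the genotypes. The labels do not tie replicates to litters, and p-values measure the spread between these retinae.

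Of the 5 genes, Dek fell and Bcor rose in TKO retinae, and Syk, Cdh11 and Ngfr did not pass the test. The quasi-likelihood test of edgeR, with an adjusted p up to 0.05 counted as passed, had 9.2% of all 16904 genes tested fall and 7.35% rise. The study's criteria for a differentially expressed gene also ask for a change of at least 2-fold and a mean count of at least 10. In the edgeR fit none of the 5 met them, as 6.35% of all genes did (4.38% of all genes were lower and met them). With DESeq2, the tool of the study, Syk met them, as 4.75% of all genes did in its direction. The groups did not overlap for Syk, Dek and Bcor, a property of 38.6% of all genes tested. The plot of normalized counts by retina shows this order of separation.

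**Figure D1:**
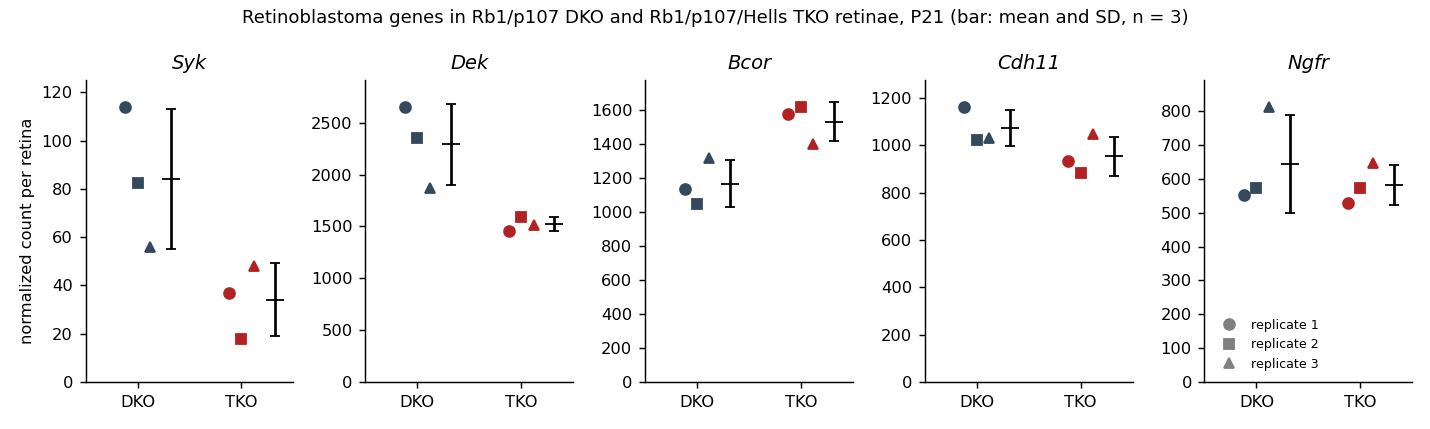
Normalized counts of Syk, Dek, Bcor, Cdh11 and Ngfr in each retina (y axis, from 0, a separate scale for each gene) for the DKO and TKO genotypes (x axis), with symbols for replicates 1 to 3 and a bar for the mean and SD of 3 retinae. All TKO points lie below all DKO points for Syk and Dek and above them for Bcor, and the groups overlap for Cdh11 and Ngfr.

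Levels were set side by side per length, as RPKM computed here from the normalized counts and the length of all exons joined. In TKO retinae Dek was highest at 37.7 ± 1.73, followed by Bcor at 14.0 ± 1.04, Ngfr at 13.3 ± 1.37, Cdh11 at 8.45 ± 0.736 and Syk at 0.288 ± 0.128 (SD, n = 3). Bcor and Ngfr did not differ there beyond their spread. In DKO retinae the order was Dek at 56.8 ± 9.70, Ngfr at 14.8 ± 3.31, Bcor at 10.6 ± 1.26, Cdh11 at 9.49 ± 0.682 and Syk at 0.709 ± 0.244. There Bcor and Cdh11 overlapped. The kinase gene was thus the lowest of the set in both genotypes, and the chromatin gene Dek the highest.

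The Dek gene spans bases 47084775 to 47106201 of chromosome 13 (GRCm38, minus strand). In the order of replicates 1, 2 and 3, its normalized counts were 1455, 1595 and 1517 in TKO retinae against 2651, 2352 and 1874 in DKO retinae. The TKO retinae were close together and the DKO retinae spread out, with DKO replicate 3 nearest to the TKO group. The means of 1522 ± 69.8 and 2292 ± 392 (SD, n = 3) put TKO at 66.4% of DKO. The log2 fold change was -0.59 (SE 0.125, 95% interval -0.88 to -0.30, adjusted p = 0.0175, edgeR). In bulk retina, fewer cells that express a gene and less RNA per cell cannot be told apart. With TKO replicate 1 left out the adjusted p was 0.0594, with TKO replicate 2 left out 0.0617, and with DKO replicates 1 and 2 left out in turn 0.0562 and 0.0714, and it was 0.0283 and 0.00375 without replicate 3 of TKO and of DKO (edgeR). Exons of Dek share 505 bases, 15.9% of its exon length, with Kdm1b on the opposite strand. Kdm1b was counted 416 to 485 times in TKO and 521 to 831 times in DKO libraries, and the strand setting of the counting is not given in the sources used here, so the part of the shared bases in the Dek counts was not tested.

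Dek is known as an E2F target, and the bases before its transcription start are shown because it is the member that fell. The sequence runs 5′ to 3′ on the gene's strand (GRCm38.p6, chr13:47106219-47106471, minus strand, from RefSeq) and ends 3 bases into the transcript. Capitals mark a CCAAT box read on the other strand (ATTGG), 17 bases before the start, and the letters TTCCCGC, an E2F-like core that begins 4 bases before it.

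Dek: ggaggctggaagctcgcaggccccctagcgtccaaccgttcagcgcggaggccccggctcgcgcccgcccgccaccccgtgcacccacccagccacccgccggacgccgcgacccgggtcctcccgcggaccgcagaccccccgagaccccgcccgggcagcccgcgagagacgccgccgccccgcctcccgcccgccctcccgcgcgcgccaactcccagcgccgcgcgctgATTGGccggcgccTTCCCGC

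The E2F sites TTTCCCGC, TTTCGCGC, TTTGCCGC and TTTGGCGC were searched on both strands of the 300 bases around the start. None was found for Dek, Syk, Bcor or Ngfr, and 2.26% of 32851 promoters hold at least 1. The shorter TTCCCGC, which is part of the first of these sites, was found in Dek alone among the 4 genes and in 4.6% of all promoters, and CCAAT in 37.4%. The letters TTTGAA of a cell cycle homology region stood within the first transcribed bases of Dek and of Bcor, against 17.9% of all promoters. The shorter motif was added after the Dek sequence had been read. A match of letters is a description and not a bound site.

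Beside Dek, the markers of dividing cells moved further. Their summed level was 2107 to 5473 normalized counts in TKO and 10799 to 20008 in DKO retinae, with a median log2 fold change of -2.55 over the 14 genes, against -0.011 over all genes tested. Top2a, which untangles replicated DNA, had a log2 fold change of -3.21 (adjusted p = 0.00780, edgeR), Mki67, a marker of cycling cells, -2.52 (adjusted p = 0.0152, edgeR), and Pcna, the sliding clamp of DNA replication, -1.27 (adjusted p = 0.00821, edgeR). For each 100 counts on these markers, Dek had 69.1, 49.4 and 27.7 in TKO retinae against 13.3, 14.1 and 17.4 in DKO retinae. The log2 ratio was 1.62 higher in TKO (exact permutation test, two-sided, p = 0.1, the smallest that 3 retinae against 3 allow). As the marker sums themselves did not overlap between the genotypes, this ratio cannot tell a change of Dek from the change of the markers. The DKO replicate with the lowest Dek, replicate 3, also had the lowest sum of these markers in its group. In TKO retinae the sums rose from replicate 1 to 3, at 2107, 3226 and 5473. Dek was at 1455, 1595 and 1517 there. The part of dividing cells in the Dek difference was not tested.

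Of 15 DEK partners and histone chaperones, 4 fell in TKO retinae (26.7%, against 9.2% of all genes) and the other 11 did not pass, with a median log2 fold change of -0.074. The 4 were Chaf1b (-2.40, adjusted p = 0.00766), Asf1b (-1.49, adjusted p = 0.0217), Chaf1a (-1.14, adjusted p = 0.00706) and Npm1 (-0.46, adjusted p = 0.0142, all from edgeR). Chaf1a and Chaf1b encode subunits of the chromatin assembly factor that loads histones behind the replication fork, Asf1b hands histones to it, and Npm1 is an abundant nucleolar chaperone. Anp32e and Nap1l1, the most abundant chaperone genes that did not pass, had log2 fold changes of 0.28 and -0.20. Daxx and Atrx, which deposit histone H3.3, had 0.037 and -0.068 and did not pass. Chaf1b, Daxx and Atrx were named after their values were seen. The count was 2 with TKO replicate 2, DKO replicate 1 or DKO replicate 2 left out.

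The Syk gene spans bases 52583173 to 52648792 of chromosome 13 (GRCm38, plus strand). It was the sparsest member, counted 32, 17 and 39 times in the TKO libraries and 121, 94 and 65 times in the DKO libraries, or 36.7, 17.9 and 47.9 against 114, 82.3 and 56.1 normalized counts. Each TKO retina was below each DKO retina, but TKO replicate 3 and DKO replicate 3 were close. The means were 34.1 ± 15.1 and 84.1 ± 28.9 (SD, n = 3), and the spread within a genotype was 44.4% of the mean in TKO and 34.4% in DKO. The log2 fold change was -1.31 (SE 0.387, 95% interval -2.19 to -0.42), the largest in size of the 5, and its adjusted p of 0.0530 from edgeR missed the threshold. DESeq2 gave 0.0106. In edgeR it was 0.0302 without TKO replicate 3 and 0.0291 without DKO replicate 3, and from 0.116 to 0.167 when any of the other 4 retinae was left out. With a term for Y-linked counts it was 0.114. The call on Syk therefore rests on the setting, and the direction was below 0 in each of them. DKO replicate 1, where Syk was highest, also stood apart in stroma: Col1a1, a collagen gene of connective tissue, had 7788 normalized counts there, 77.0 and 60.4 in the other DKO retinae and 18.3 to 41.0 in TKO retinae. Without that library the log2 fold change of Syk was -1.03 (adjusted p = 0.167, edgeR). Col1a1 was named after its values were seen, and the part of connective tissue in the Syk counts was not tested.

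The 250 bases before a RefSeq start of Syk are shown for comparison with Dek, on the gene's strand (GRCm38.p6, chr13:52583187-52583436, plus strand). That start lies downstream of the first base of the gene span given above, so the 250 bases are inside that span. A further RefSeq start (window chr13:52596632-52596931) was searched and is not shown. No searched E2F or CCAAT letters lie in the bases shown, so they are all in lower case. G and C make up 71.6% of these bases in Syk and 81.2% in Dek, with 27 and 41 CpG pairs.

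Syk: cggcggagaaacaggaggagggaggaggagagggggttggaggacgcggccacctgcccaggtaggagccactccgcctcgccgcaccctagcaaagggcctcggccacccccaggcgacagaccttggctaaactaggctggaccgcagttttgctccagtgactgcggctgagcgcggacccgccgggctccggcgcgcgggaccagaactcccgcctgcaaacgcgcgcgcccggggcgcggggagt

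SYK docks on phosphorylated receptors and adaptors of immune cells, and in retina these genes are mainly those of microglia, the resident macrophages. Of 21 receptors, adaptors and effectors of SYK, 12 fell in TKO retinae (57.1%, against 9.2% of all genes) and the other 9 did not pass. The median log2 fold change of the 21 was -1.16, and each fitted value was below 0, from -1.71 to -0.046. Lyn, the Src-family kinase that phosphorylates receptor tails, had 45.9, 66.3 and 109 normalized counts in TKO against 135, 180 and 205 (log2 fold change -1.24, adjusted p = 0.0291, edgeR). Sh3bp2, an adaptor that binds SYK, had 76.8, 60.0 and 78.5 against 160, 167 and 144, a log2 fold change of -1.13 (adjusted p = 0.00752, edgeR). Ptpn6, a phosphatase that opposes the pathway, had a log2 fold change of -1.16 (adjusted p = 0.0311, edgeR). For these 3 genes, named because they passed, no TKO retina reached the level of a DKO retina, as for 20.6% of all genes tested. Tyrobp, the adaptor DAP12, had -1.16 and did not pass (adjusted p = 0.0840, edgeR), nor did the ubiquitin ligase gene Cblb at -0.046. The count of 12 dropped to 3 with TKO replicate 1 left out and to 2 with TKO replicate 2 left out. It was 4, 2 and 6 with DKO replicates 1, 2 and 3 left out in turn.

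Of 15 microglia markers 7 fell (46.7%, against 9.2% of all genes) and the other 8 did not pass, with a median log2 fold change of -1.08, and their summed level was 2183 to 3706 normalized counts in TKO and 4329 to 6837 in DKO retinae. Csf1r, the receptor that keeps microglia alive, had 347, 344 and 522 normalized counts in TKO and 940, 906 and 635 in DKO retinae (log2 fold change -1.03, adjusted p = 0.0135, edgeR). The complement genes C1qa and C1qb had -1.29 and -1.17 (adjusted p = 0.0125 and 0.0202, edgeR). Among markers of resting microglia, P2ry12 had 79.5 ± 16.3 and 77.7 ± 25.7 normalized counts in TKO and DKO retinae (SD, n = 3), and Tmem119 had 46.9 ± 11.9 and 60.0 ± 19.6. Siglech, a lectin receptor gene of microglia, lay in the other direction, with 37.8, 38.9 and 34.4 normalized counts in TKO against 20.7, 28.0 and 16.4, and did not pass (log2 fold change 0.77, adjusted p = 0.100, edgeR). These 3 were named after their values were seen. Olfml3, another marker that did not pass, had -0.61, and no marker of the list was at or under 3 counts in every library. For each 100 microglial marker counts Syk had 1.68, 0.640 and 1.29 in TKO against 1.98, 1.20 and 1.30 in DKO retinae. The groups overlapped on this ratio, with a log2 difference of -0.39 (exact permutation test, two-sided, p = 0.5), and without TKO replicate 2 the difference was 0.016. The part of microglia in the Syk difference was not tested further.

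The Bcor gene spans bases 12036740 to 12160355 of the X chromosome (GRCm38, minus strand). It had 1578, 1618 and 1403 normalized counts in TKO and 1134, 1046 and 1318 in DKO retinae. It was the only member with each TKO retina above each DKO retina, and replicate 3 of each genotype lay nearest to the other group. The means were 1533 ± 114 and 1166 ± 138 (SD, n = 3), or 131% of DKO. The log2 fold change was 0.39 (SE 0.104, 95% interval 0.16 to 0.63, adjusted p = 0.0370, edgeR). Among the 3 libraries at 0 for Ddx3y, Bcor had 1618 and 1403 in TKO and 1318 in DKO, and among the others 1578 in TKO and 1134 and 1046 in DKO, so TKO was above DKO within each sex. With a term for Y-linked counts the log2 fold change was 0.36 and the adjusted p 0.0707 (edgeR). With TKO replicates 1 and 2 left out in turn the adjusted p was 0.106 and 0.130, and with DKO replicates 1 and 2 left out it was 0.111 and 0.133 (edgeR). With libraries scaled to their totals, where the median of all genes lay at -0.17 in place of -0.011, the log2 fold change was 0.24 (adjusted p = 0.101, edgeR).

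The 250 bases before a RefSeq start of Bcor stand here beside those of Dek and Syk, on the gene's strand (GRCm38.p6, chrX:12160347-12160596, minus strand). The last few of these bases lie inside the gene span given above. The 250 bases hold 62.8% G and C and 17 CpG pairs, the fewest of the 3 genes that did not overlap. They hold none of the searched E2F or CCAAT letters.

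Bcor: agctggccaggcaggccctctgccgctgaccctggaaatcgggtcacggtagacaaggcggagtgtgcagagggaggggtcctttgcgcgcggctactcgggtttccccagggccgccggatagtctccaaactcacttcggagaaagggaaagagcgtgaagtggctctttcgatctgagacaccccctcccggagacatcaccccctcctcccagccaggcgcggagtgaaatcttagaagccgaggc

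BCOR joins the PCGF1 and RING proteins and the DNA-binding demethylase KDM2B in the complex PRC1.1, which marks histone H2A, and it was first found as a partner of the repressor BCL6. Of 11 such genes, 2 rose (18.2%, against 7.35% of all genes) and 1 fell (9.09%, against 9.2%), and the median log2 fold change was 0.11. Bcl6 had 452, 538 and 400 normalized counts in TKO and 182, 214 and 362 in DKO (log2 fold change 0.88, adjusted p = 0.0444, edgeR). Rybp, a RING-binding subunit, had 1303, 1376 and 1216 against 1067, 1086 and 1052, a log2 fold change of 0.28 (adjusted p = 0.0392, edgeR). Kdm2b went the other way, with 461, 522 and 529 against 678, 723 and 603 normalized counts (log2 fold change -0.41, adjusted p = 0.0312, edgeR). For these 3 genes, named because they passed, the groups did not overlap, a property of 38.6% of all genes tested. Skp1a and Usp7, the other abundant members of the list, had -0.098 and 0.11 and did not pass. Without any 1 of TKO replicates 1 and 2 and DKO replicates 1 and 2, 0 genes of the list passed in edgeR, and DESeq2 on all 6 retinae called 3. At an unadjusted p under 0.05, 4 genes of the list moved in edgeR with all 6 retinae.

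The Cdh11 gene spans bases 102632095 to 102785642 of chromosome 8 (GRCm38, minus strand). It had 931, 884 and 1046 normalized counts in TKO and 1160, 1023 and 1031 in DKO retinae. TKO replicate 3 reached the range of the DKO retinae, and DKO replicate 1 stood above the rest. The means were 954 ± 83.0 and 1072 ± 77.0 (SD, n = 3). The log2 fold change was -0.17 (SE 0.0929, 95% interval -0.38 to 0.04, adjusted p = 0.241, edgeR). The interval allows TKO levels from 0.768 to 1.03 times those of DKO.

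The other classical and type II cadherins and the catenins that link them to actin were tested beside Cdh11. Of 22 genes, 1 fell (4.55%, against 9.2% of all genes) and the other 21 did not pass, and the median log2 fold change was -0.14. Cdh20, a type II cadherin, fell, with 407, 433 and 611 normalized counts in TKO and 1068, 1006 and 847 in DKO retinae (log2 fold change -1.01, adjusted p = 0.00821, edgeR). Cdh2, the N-cadherin of retinal neurons and glia, had 2733 ± 365 and 3425 ± 176 normalized counts (SD, n = 3, log2 fold change -0.33, adjusted p = 0.0744, edgeR). Ctnnb1, beta-catenin, had -0.048. DESeq2 called 2 genes of this list, and 3 passed in edgeR without TKO replicate 3.

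The Ngfr gene spans bases 95568818 to 95587735 of chromosome 11 (GRCm38, minus strand). It had 528, 572 and 646 normalized counts in TKO and 552, 572 and 812 in DKO retinae. Replicate 2 of each genotype had nearly the same level, and DKO replicate 3 was above the other 5 retinae. The means were 582 ± 59.6 and 645 ± 145 (SD, n = 3). The log2 fold change was -0.15 (SE 0.158, 95% interval -0.51 to 0.21, adjusted p = 0.545, edgeR), and without DKO replicate 3 it was 0.049 (adjusted p = 0.795, edgeR). For Ngfr neither the size nor the direction was settled by these libraries.

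Of the neurotrophins, their TRK receptors and the coreceptors of p75NTR, 18 of 19 were tested. Of these 0 passed in edgeR, against 16.6% of all genes, and 0 in DESeq2, while 3 had an unadjusted p under 0.05 in edgeR. Ntf5 was left out, with at most 3 counts in each library. The median log2 fold change was -0.23, with fitted values below 0 for 14 and above 0 for 4 genes. Maged1, an intracellular partner of p75NTR, had -0.20 (adjusted p = 0.197, edgeR), and Sort1, which with p75NTR binds proneurotrophins, had 0.083 (adjusted p = 0.485, edgeR). The receptor gene Ntrk2 had -0.29 and the gene of its ligand, Bdnf, had 0.032, and neither passed. Both were named after their values were seen. With total counts only, 3 genes of the list passed, and 1 passed in edgeR with upper-quartile scaling and 1 with the filter filterByExpr.

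**Figure D2:**
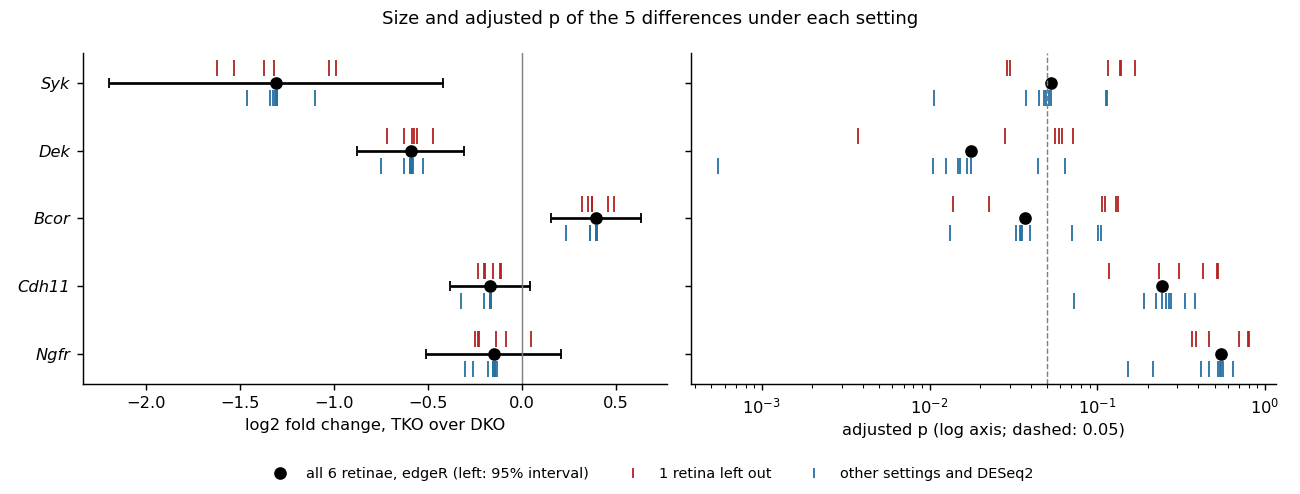
Left, log2 fold change of TKO over DKO for each gene, with its 95% interval (black), the values with 1 retina left out (red ticks) and under other settings or DESeq2 (blue ticks); right, the adjusted p of the same fits on a log axis, with a dashed line at 0.05. Ticks of Syk, Dek and Bcor lie on both sides of the line, those of Cdh11 and Ngfr to its right, and 1 tick of Ngfr lies to the right of 0 in the left panel.

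Ngfr and Cdh11 are known in Müller glia, the radial glia of the retina. Of 10 Müller glia markers 5 rose, against 7.35% of all genes, 1 fell, against 9.2% of all genes, and 4 did not pass. The summed level of the 10 markers was 70272 to 73562 normalized counts in TKO and 49565 to 52208 in DKO retinae. Glul, which makes glutamine from glutamate, had a log2 fold change of 1.15 (adjusted p = 0.00548, edgeR), Rlbp1, a retinoid carrier, 0.76 (adjusted p = 0.00821, edgeR), and Abca8a, a lipid transporter, 0.58 (adjusted p = 0.0149, edgeR). Sox9, a transcription factor of glia and progenitors, fell with -1.02 (adjusted p = 0.0155, edgeR). Of the 4 that did not pass, Dkk3, Slc1a3 and Vim had log2 fold changes of -0.061, -0.12 and -0.41, on the same side of 0 as Ngfr and Cdh11, and Aqp4 had 0.28 (Vim and Aqp4 were named after their values were seen). For each 100 Müller marker counts Ngfr had 0.717, 0.788 and 0.919 in TKO against 1.07, 1.15 and 1.55 in DKO, a log2 difference of -0.63. Cdh11 had 1.27, 1.22 and 1.49 against 2.24, 2.06 and 1.97, a log2 difference of -0.66. On both ratios each TKO retina was below each DKO retina (exact permutation test, two-sided, p = 0.1, the smallest possible), although the levels of both genes overlapped. The marker sums themselves did not overlap between the genotypes, so these ratios cannot tell a change of either gene from the change of the markers. Glul alone held much of the marker sum, and with each marker weighted equally the differences were -0.37 for Ngfr and -0.41 for Cdh11.

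**Figure D3:**
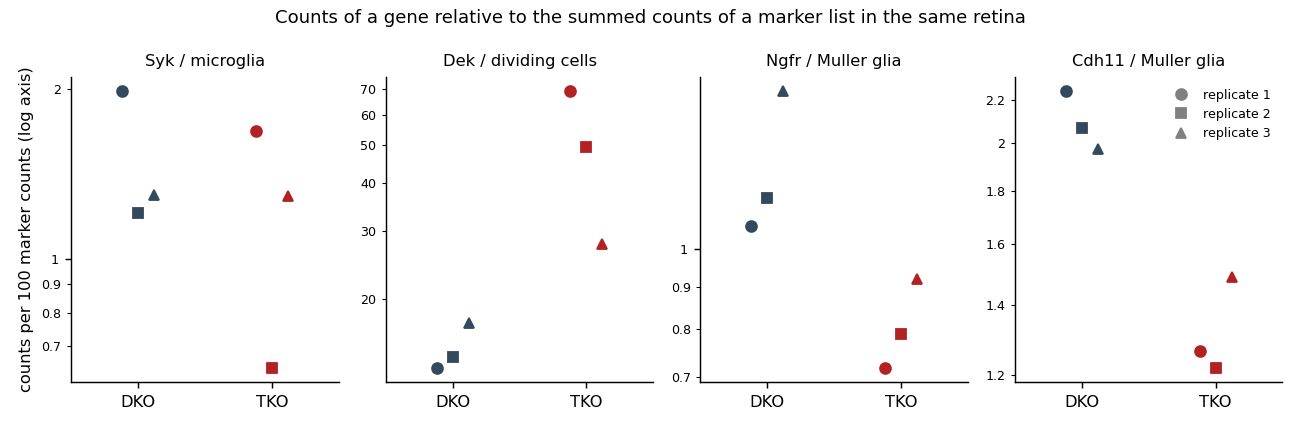
Counts of a gene for each 100 counts on a marker list in the same retina (y axis, log scale, a separate range for each panel) by genotype (x axis), with symbols for replicates 1 to 3. The groups overlap for Syk over microglia markers, TKO lies above DKO for Dek over markers of dividing cells, and TKO lies below DKO for Ngfr and Cdh11 over Müller glia markers.

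Other genes that human retinoblastoma gains, loses or mutates were mixed. Of 11, 3 fell (27.3%, against 9.2% of all genes), 2 rose (18.2%, against 7.35%) and 6 did not pass, with a median log2 fold change of 0.0051. Mycn, the oncogene amplified in some tumors, had 132, 154 and 247 normalized counts in TKO and 399, 440 and 360 in DKO retinae (log2 fold change -1.18, adjusted p = 0.0122, edgeR). Kif14, a mitotic kinesin, had 57.3, 67.4 and 119 against 263, 150 and 156 (-1.23, adjusted p = 0.0362, edgeR). Trp53 had 279, 279 and 299 against 484, 523 and 527 (-0.84, adjusted p = 0.00480, edgeR). Otx2, a photoreceptor and bipolar cell transcription factor, rose by 0.94 on the log2 scale (adjusted p = 0.0106, edgeR), and Rbl2, the third pocket protein p130, by 0.31 (adjusted p = 0.0218, edgeR). Arid1a and Mdm2, the abundant genes that did not pass, had 0.0051 and -0.020. E2f3, which is gained together with DEK in human tumors, had 498 ± 58.7 and 525 ± 8.80 normalized counts (SD, n = 3, adjusted p = 0.651, edgeR), while Dek fell. E2f3 was named after its values were seen. The count of 5 genes that passed was 3 and 2 with TKO replicates 1 and 2 left out in turn, and 1 with DKO replicate 1 or DKO replicate 2 left out.

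**Figure D4:**
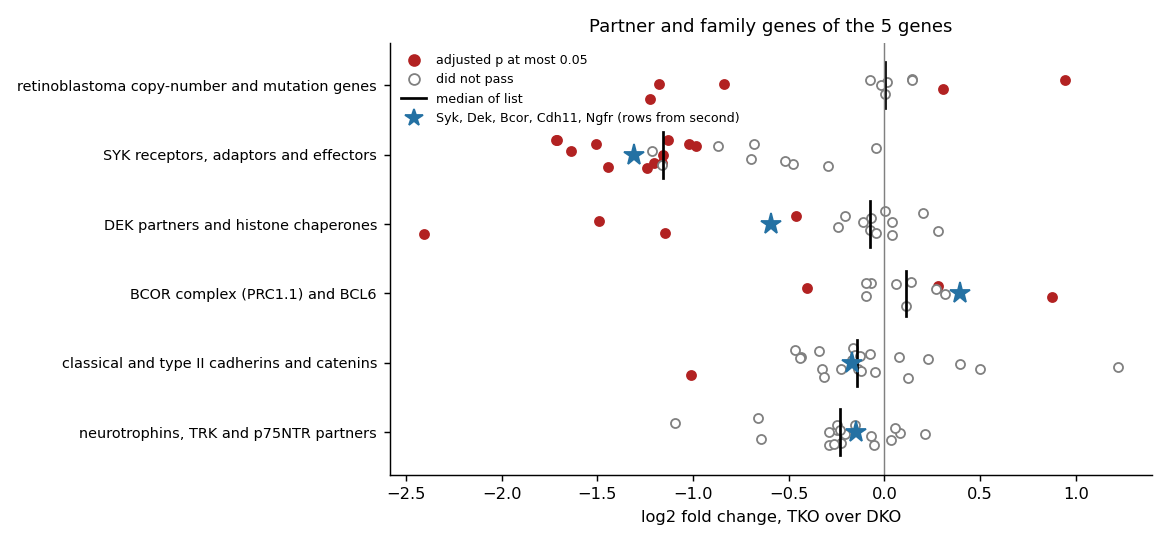
Log2 fold change of TKO over DKO (x axis) of each tested gene in 6 lists (rows), filled red where the adjusted p from edgeR was at most 0.05 and open where it was not, with a black line at the list's median and a blue star for Syk, Dek, Bcor, Cdh11 or Ngfr in its own row. The SYK row lies to the left of 0 with 12 filled points, and the medians of the other rows lie between -0.23 and 0.11, with 14 of 18 neurotrophin genes and 16 of 22 cadherin and catenin genes to the left of 0.

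Over the 6 lists together, 98 of 99 genes were tested, and 21 fell and 4 rose, 25.5% in all against 16.6% of all genes tested. Without the SYK list, which holds 12 of the 21, the lists of DEK, BCOR, cadherin and neurotrophin partners and of tumor genes had 9 of 77 that fell, 11.7% against 9.2% of all genes.

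Genes whose pattern over the 6 retinae came nearest to a member were found among 11681 genes by the root mean square difference of centred log2 levels, where 0 is an identical pattern. Dek was nearest to Wdr76 (0.0346), Zfp558 (0.0382) and Snrpb2 (0.0437), which had log2 fold changes of -0.54, -0.56 and -0.60. Bcor was nearest to Ttll5 (0.0242), Ctif (0.0285) and Vrk3 (0.0312), with log2 fold changes of 0.41, 0.39 and 0.37. The search held genes with a mean of at least 100 normalized counts, and Syk itself lay below that, at 34.1 in TKO and 84.1 in DKO retinae. Genes as sparse as Syk were therefore not searched. Among those searched Syk had no near match, and Col27a1 (0.198), Col11a1 (0.230) and Zfp57 (0.231) came closest. Like Syk, these 3 had DKO replicate 1 highest and TKO replicate 2 lowest, a likeness by which they were chosen. Col27a1 had 1302 normalized counts in DKO replicate 1 and 1139 in DKO replicate 2. Cdh11 was nearest to Ndufaf2 (0.0145), Eif4g1 (0.0261) and Nynrin (0.0301), and Ngfr to Ptrhd1 (0.0264), Wfs1 (0.0531) and Ndufb2 (0.0547). Between members, Cdh11 and Ngfr were most alike (0.222) and Syk and Bcor least (1.05).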

How the data were processed

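Stranded, paired-end mRNA libraries were made from 3 TKO and 3 DKO retinae at P21. The deposited values are raw counts per gene symbol, 1 column per retina, made by the authors without normalization. Their methods name STAR on GRCm38 and HTSeq, and the submitters' processing notes name TopHat2 and featureCounts, so the counter is uncertain. Reads with more than 1 alignment were allowed.

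Genes with a sum under 10 were removed, which left 16904. Differences were tested in edgeR 4.0.16 under R 4.3.3 (TMM, quasi-likelihood F test, Benjamini-Hochberg over all genes tested), which was first tested on simulated counts. The SE is the size of the log2 fold change over the root of F. The study's tool DESeq2 (1.42.0) was an alternative, with other scalings, filters and dispersions, a replicate block and each retina left out. A fit with Y-linked counts as a covariate, and the shortest E2F motif, were chosen after the data were seen. Ratios to marker sums used exact permutation tests (scipy 1.17.1). Marker and partner lists were hand-written, and members and lists were chosen with earlier results of these data known. Coordinates and exon lengths come from GENCODE M21 (GRCm38). Promoters matched for 4 of the 5 genes, all but Cdh11. The genes named are the 5 members, Hells, Rb1 and Rbl1, the 3 genes nearest to each member (log2 of normalized count plus 0.5, mean of at least 100), and, for each partner list and each marker list set beside a member, up to 3 genes that passed in each direction and up to 2 that did not, by mean level. Chi-square per degree of freedom between replicates was 8.61 to 25.3, so each library counted as a sample of its own. Counts of 0 allow up to 3 counts, and such limits cover counting error only.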

Additional observations from a re-analysis of the deposited data

How the results depend on the processing

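The direction of Dek (log2 fold change -0.75 to -0.47), Bcor (0.24 to 0.49), Syk (-1.62 to -0.99), Cdh11 (-0.32 to -0.11) and Hells (-3.08 to -2.69) did not change under any setting run. With 1 retina left out, Syk ran from -1.62 to -0.99, Dek from -0.72 to -0.47, Bcor from 0.32 to 0.49, Cdh11 from -0.23 to -0.11 and Ngfr from -0.25 to 0.049, reversed without DKO replicate 3. Syk passed with DESeq2 (-1.30), total counts only (-1.46), no filter (-1.31), filterByExpr (-1.31) and robust dispersions (-1.31), with adjusted p from 0.0106 to 0.0493. Bcor did not pass with total counts only (0.24) or a term for Y-linked counts (0.36). With the replicate block Dek (-0.58, adjusted p = 0.0639, edgeR) and Bcor (0.40, adjusted p = 0.105, edgeR) did not pass, and 1 of the partner-list genes was lower and 0 were higher, against 21 and 4, while 82 of all genes were lower and 24 higher. At an unadjusted p under 0.05 edgeR had 32 and 6 of these genes with the block and 33 and 8 without it, and DESeq2 called 25 and 4. Deviations of same-numbered retinae correlated at 0.183, -0.222 and -0.0988, so replicate numbers were not taken as pairs. With total counts only 1 partner-list gene was higher. With 1 retina left out, partner-list genes that were lower ran from 6 to 27 and those higher from 0 to 5. The log2 ratio of Syk to microglia markers ran from -0.68 to 0.016 with 1 retina left out and reversed without TKO replicate 2. That of Dek to markers of dividing cells then ran from 1.32 to 1.98. Those of Ngfr and Cdh11 to Müller glia markers ran from -0.74 to -0.46 and from -0.75 to -0.61. The choice of markers moved them further. With each marker weighted equally and with the first 5 markers only, Dek had 1.92 and 2.43. Ngfr had -0.37 and -0.95, Cdh11 -0.41 and -0.99, and Syk -0.54 and -0.30. The causes were not tested. Syk had 17 to 121 counts a library, the fewest of the 5, and the limit that depth sets on each gene was not tested.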

Other observations

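The remaining marker lists give the setting in which these genes were measured. Of 8 cone markers 2 rose in TKO retinae (25.0%, against 7.35% of all genes), with a median log2 fold change of 0.90. Of 9 bipolar markers 1 rose (11.1%), with a median of 0.35. Of 7 lens markers 2 rose (28.6%). Their summed level was 347 to 2157 normalized counts in TKO and 94.1 to 95 in DKO retinae. Of 8 RPE markers 1 rose (12.5%), with a median of 0.58. Of 12 vessel and stroma markers 1 rose (8.33%, against 7.35% of all genes), with a median of -0.52. Their summed level was 23582 normalized counts in DKO replicate 1, 6304 and 6902 in the other DKO retinae and 5227 to 8033 in TKO retinae. Of 7 gliosis markers 1 fell (14.3%, against 9.2% of all genes), with a median of -0.81. The summed level of the gliosis markers was 2406 to 5519 normalized counts in TKO retinae. It was 8009 and 6071 in DKO replicates 1 and 2 and 20388 in DKO replicate 3. Ngfr was also highest in DKO replicate 3, and the part of gliosis in the Ngfr counts was not tested. Of the 8 amacrine, 4 horizontal and 8 ganglion cell markers 0 passed in edgeR, against 16.6% of all genes in either direction. At an unadjusted p under 0.05 edgeR had 3, 2 and 1, and DESeq2 called 3, 1 and 0. Rb1 rose by 0.34 on the log2 scale (748 ± 66.0 against 591 ± 23.5 normalized counts, SD, n = 3, adjusted p = 0.0388, edgeR). Its exons share 488 bases with Rcbtb2 and 408 with Lpar6 on the opposite strand. Rbl1 had 20.3 ± 7.02 against 18.6 ± 4.87 normalized counts.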
